A study of Sus scrofa with 2 samples.

Results

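Chromatin loops that lie inside a topologically associating domain (TAD) without closing it were examined in pig (Sus scrofa) spleen. Hi-C joins by ligation, and then sequences, stretches of DNA that were near each other in the cross-linked nucleus. A TAD is a stretch of chromatin that contacts itself more than its surroundings, and a loop is a pair of loci, here 25 kb anchors, with more contacts than their surroundings. The loops were chosen by position from the deposited loop and TAD lists, on chromosomes 1 to 18 and with the anchor starts under 400 kb apart. Both anchor midpoints had to lie in the same TAD. The anchors were not allowed to meet both corners of any TAD, that is, its start and its end, each widened by 20 kb. Of 3410 listed loops, 2817 were autosomal and under 400 kb, and 1191 of these met the rule and are called interior loops below. The others were 770 corner loops, which join both edges of a TAD, 574 outside loops with neither anchor at a TAD, and 282 loops that leave or cross a TAD.

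The series held a single group, spleen tissue with no treatment named, in 2 biological replicates labelled r1 and r2. The labels used here state no breed, sex or age. Both lists cover the series as a whole, so there is no value per replicate, and errors below are spreads between chromosomes. The sequencing depth is unknown here. As measures of precision, each loop has only its contacts and 4 false discovery rates (FDR), which run up to 0.0999 in the list.

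As background, the cohesin complex extrudes chromatin into loops until it meets CTCF, a DNA-binding insulator protein, in a blocking orientation. A loop between the 2 edges of a TAD shows in a contact map as a bright corner. Loops within a TAD can join nested CTCF sites or bring promoters to enhancers, and a contact map alone does not tell these kinds apart. The spleen is a blood-filtering organ with many B cells, T cells, macrophages and red blood cells.

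Many interior loops lay just inside the edges of their TAD. The left anchor midpoint was a median of 42.5 kb from the TAD start, with quartiles of 32.5 and 77.5 kb. The right anchor midpoint was a median of 42.5 kb from the TAD end, with quartiles of 22.5 and 82.5 kb. The shortest TAD that held a loop had a median length of 260 kb, and the loop spanned a median of 57.1% of it. These positions were used by the rule and are given as a description. Of the 1191 loops, 562 (47.2%) missed the nearest widened corner by at most 25 kb, the width of an anchor. The other 629 missed it by more, and 289 by over 100 kb. This corner could belong to any TAD, not only to the TAD that held the loop. In 438 loops (36.8%) both anchor midpoints were within 50 kb of the edges of the TAD that held the loop. In 211 loops (17.7%) both were over 50 kb from them. At the limit of the rule, 117 interior loops touched a corner window without overlapping it, with a median of 116 contacts. The 166 corner loops with the smallest overlap, 5 kb, had a median of 113.5 contacts. At the span limit, the 5 longest interior loops spanned 375 kb, and 6 loops of 400 kb met the other conditions.

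**Figure D1:**
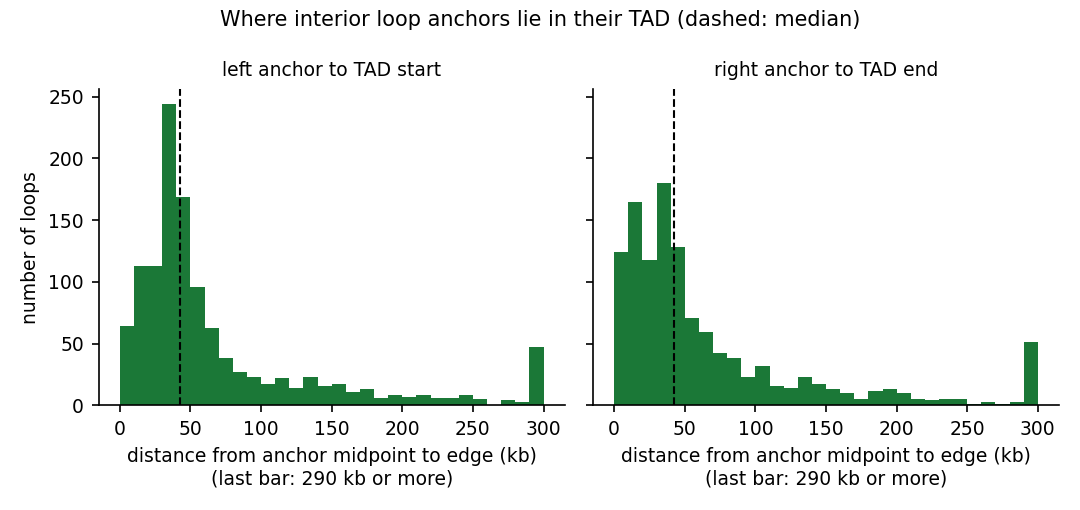
Histograms of the distance (kb) from the anchor midpoint to the TAD edge for the 1191 interior loops, left anchor to TAD start and right anchor to TAD end, with dashed lines at the medians of 42.5 kb. Most anchors lie within 100 kb of the edge, and the last bar gathers distances of 290 kb or more.

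Many interior loops met a TAD edge with a single anchor. The rule shapes this count, since it leaves out loops that meet both edges of a TAD. The share expected from placement alone was not computed. In 696 loops (58.4%) exactly 1 anchor met an edge of a TAD around the loop, at the left anchor in 290 and at the right in 406. In 494 loops (41.5%) neither anchor did. Of 2049 distinct anchors, 1745 had 1 interior loop, 279 had 2 and 25 had 3 or more, up to 5. Of these anchors, 249 (12.2%) also served a corner loop, and only 16 were the left end of a loop and the right end of another. Loops are listed as pixels, and 244 interior loops (20.5%) belonged to a group of touching pixels that also held a corner loop. The 1191 loops fell into 888 groups of touching pixels, and 521 touched no other listed pixel.

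Of the 1908 autosomal TADs, 752 (39.4%) held an interior loop. Of these, 451 held 1, 203 held 2, 68 held 3, 23 held 4, 4 held 5 and 3 held 6. The share was 39.7% of 461 TADs under 200 kb, 45.1% of 708 TADs from 200 to under 300 kb, and 45.1% of 326 TADs from 300 to under 400 kb. It was 41.4% of 128 TADs from 400 to under 600 kb and 17.5% of 285 longer TADs, where a loop was assigned to the shortest TAD around it. Interior loops were found in TADs with and without a corner loop. Among TADs of 200 to under 300 kb, 46.7% of 257 with a corner loop and 44.1% of 451 without one held an interior loop, and from 300 to under 400 kb the shares were 48.1% of 81 and 44.1% of 245. These shares were not tested. Across the 18 chromosomes, interior loops made up 41.3 ± 5.92% (SD, n = 18) of loops under 400 kb, from 28.8% on chromosome 16 to 49.8% on chromosome 3.

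Interior loops were shorter than corner loops. Their median span was 125 kb, against 200 kb for corner loops and 125 kb for outside loops, and 453 (38.0%) had the shortest listed span of 100 kb. The rule shapes the contrast with corner loops, which join both edges of a TAD, while an interior loop lies inside one. The deposited list gives the observed contacts of each loop and the number expected from the ring of pixels around it. Interior loops had a median of 130 observed contacts, with quartiles of 109 and 152, against 111 for corner loops and 95 for outside loops. Observed over expected contacts had a median of 1.83, against 2.09 for corner loops and 1.97 for outside loops. Both values come from the contact map in which loops and TADs were called, so the comparison is a description with no test.

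Interior loops also had the lowest median ratio when loops of equal span were compared. The order of corner and outside loops changed with span. At each of the 11 spans with 10 or more loops of every class, 100 to 350 kb, the median ratio of interior loops was below that of corner loops and below that of outside loops. At 100 kb the medians were 1.70 for 453 interior, 2.03 for 29 corner and 1.80 for 195 outside loops. At 200 kb they were 1.97 for 88 interior, 2.15 for 116 corner and 2.16 for 31 outside loops. Observed contacts ran otherwise. At these 11 spans the interior median was above the outside median each time and above the corner median at 3. At 200 kb interior and corner loops both had a median of 111 contacts, with 56.8 expected for interior and 50.9 for corner loops, and outside loops had 80 contacts with 37.2 expected. Within the interior loops, the 562 that missed a corner by at most 25 kb had a median ratio of 1.9, and the 629 farther ones 1.77, with median spans of 150 and 125 kb. At 100 kb alone the medians were 1.75 for 160 and 1.66 for 293 loops. The ratio varied little between chromosomes, with chromosome medians of 1.82 ± 0.0347 (SD, n = 18).

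**Figure D2:**
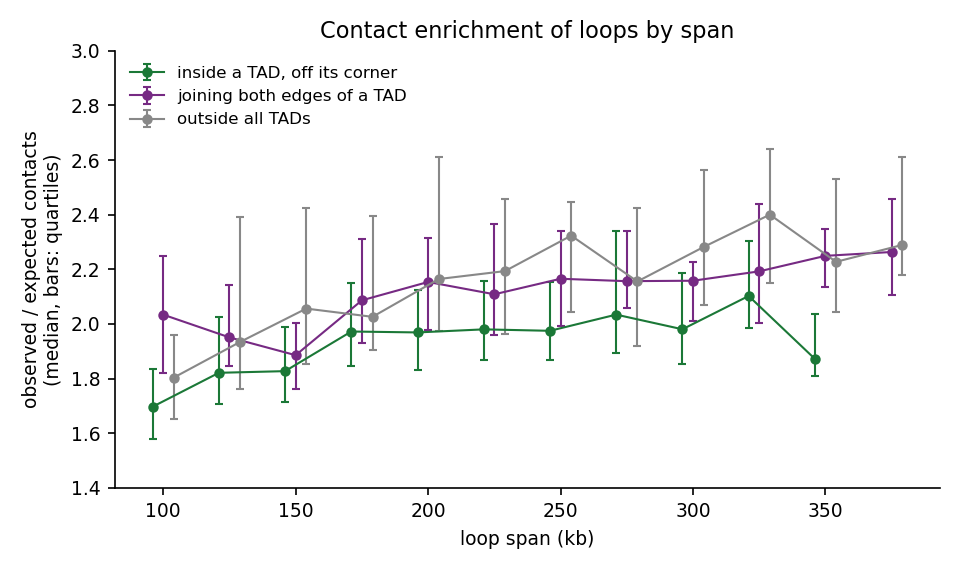
Median ratio of observed to expected contacts (bars show quartiles) against loop span in kb, for interior, corner and outside loops, for spans with 10 or more loops of the class. The interior medians, 1.70 at 100 kb and 1.97 at 200 kb, lie below both others at each shared span.

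The 10 interior loops with the most contacts, chosen for that, had 227 to 371. The first, on chromosome 14 from the anchor at 7250001 to 7275000 to the anchor at 7350001 to 7375000, had 371 contacts, where 201 were expected. An end of RHOBTB2, an atypical GTPase, lay in its left anchor. PIM1, a serine/threonine kinase that promotes survival of blood cells, had an end in the right anchor of a chromosome 7 loop, 32775001 to 32800000. That loop had 276 contacts against 135 expected. A touching pixel that ended at TMEM217 had 262 contacts against 117. A pair of touching pixels on chromosome 7 joined TMED10, a cargo receptor of the secretory pathway, to FOS, the immediate-early transcription factor, 100 kb away, with 249 and 246 contacts against 124 and 132 expected. The FOS loops filled most of a TAD of 160 kb, from 98310001 to 98470000.

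On chromosome 13 a loop of 100 kb joined an anchor with ends of USP4, GPX1 (a glutathione peroxidase) and RHOA (a small GTPase of the cytoskeleton) to an anchor with ends of AMT and NICN1. It had 257 contacts against 127 expected. RHOH, a GTPase of blood cells, had an end at a chromosome 8 loop with 234 contacts against 111 expected. PTK2B, a kinase related to FAK, and TRIM35 had ends at a chromosome 14 loop with 239 contacts against 91.6. GADD45B, a stress-induced gene, was at a chromosome 2 loop with 229 contacts against 95. Of these 10 loops, 9 lay in TADs under 200 kb long, and the RHOH loop lay in a TAD of 240 kb.

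A different set had the highest ratios. Of the 10 interior loops with the highest ratio, 4 lay on chromosome 6 between 8500001 and 8725000, inside the annotated span of MAF (8468736 to 8910012), a transcription factor of macrophages and T cells. They had 59 to 98 contacts and ratios of 3.11 to 5.64, and 5.64 was the highest of all interior loops. Their TAD was 1830 kb long, and they missed its corner by 895 to 920 kb. No protein-coding gene end lay in any of their anchors. A pair on chromosome 13, from 190850001 to 191025000, had 47 and 49 contacts against 8.79 and 12.8 expected, and no protein-coding gene lay at or between their anchors. Their TAD was 1930 kb long. A 225 kb loop on chromosome 4 had 191 contacts where 34.5 were expected. The loop with the 10th highest ratio, 2.91, was on chromosome 17 and joined SRXN1, a sulfiredoxin, to NRSN2 with 117 contacts. Of these 10 loops, 8 had 7.24 to 28.3 expected contacts, against a median of 70.4 over all interior loops.

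Pooled per chromosome, gene ends were denser at interior anchors than in the rest of the TADs that held them. The gene table gives no strand, so both annotated ends of a gene were counted and "gene end" means either of them. The 2049 distinct interior anchors held 1776 protein-coding gene ends. Per chromosome, interior anchors held 0.807 ± 0.262 gene ends per 25 kb, against 0.496 ± 0.186 in the rest of their TADs (SD, n = 18 chromosomes each), where edges widened by 20 kb and all loop anchors were left out. The difference was 0.312 ± 0.148 and was positive on 17 of 18 chromosomes, all but chromosome 11 (exact two-sided sign-flip permutation test over chromosomes, p = 1.526e-05, Benjamini-Hochberg adjusted over 7 tests p = 0.000107). With the interior anchors that met no TAD edge, an alternative added later, the difference was 0.279 and also held on 17 chromosomes. The comparison was not made within single TADs, so long TADs weigh more in the rest than in the anchors. The 50 TADs of 600 kb or more with an interior loop held 80 of the 1191 loops. The part that TAD length plays in the difference was not tested. The test measures the spread between chromosomes and not between animals, here and below.

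Interior anchors were not shown to differ in gene ends from the anchors of other loops. They held 0.812 ± 0.267 gene ends, against 0.763 ± 0.256 for corner loops (SD, n = 18), a difference of 0.0482 with a 95% interval of -0.0508 to 0.147 (exact permutation adjusted p = 0.439). With 1 pixel per group of touching pixels it was 0.125, higher on 13 of 17 chromosomes, and also missed the threshold of 0.05 after adjustment (exact permutation p = 0.0287, adjusted p = 0.0620). Against outside loops, with 0.997 ± 0.485, the difference was -0.185 (interval -0.376 to 0.00600, exact permutation adjusted p = 0.151), and interior anchors were higher on 4 of 18 chromosomes. Gene ends at both anchors were found in 25.2 ± 10.4% of interior loops, against 24.8 ± 10.3% of corner loops and 31.0 ± 15.2% of outside loops. These differences, 0.357 and -5.82 percentage points, had intervals of -5.23 to 5.94 and -14.6 to 2.99 (exact permutation adjusted p = 0.895 and 0.315). Gene ends at neither anchor were found in 30.5 ± 11.8% of interior and 31.3 ± 10.4% of corner loops, a difference of -0.868 (interval -8.66 to 6.92, exact permutation adjusted p = 0.895). With 1 pixel per group it was -5.35 points (exact permutation p = 0.0344, adjusted p = 0.0620). In the loops with 1 anchor at an edge, the edge anchor held 0.878 ± 0.286 gene ends and the inner anchor 0.775 ± 0.300. That difference, 0.103 (interval -0.00686 to 0.212), missed the threshold (exact permutation adjusted p = 0.151).

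**Figure D3:**
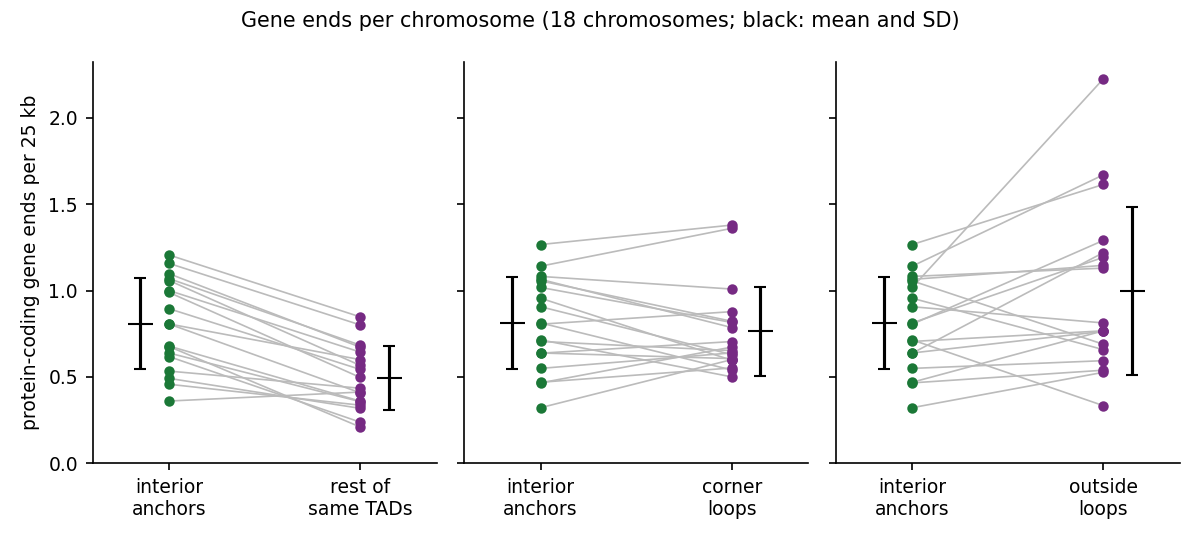
Protein-coding gene ends per 25 kb on each of 18 chromosomes, joined by lines, for interior anchors against the rest of the same TADs, corner loops and outside loops; black bars show mean and SD. Interior anchors lie above the rest of the TADs on 17 chromosomes and overlap with the anchors of other loops.

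Other classes of genes were counted at distinct anchors without a test. Ends of lncRNA genes numbered 0.232 per anchor at interior, 0.196 at corner and 0.197 at outside anchors. Ends of tRNA genes were rare at interior anchors, 14 in all, against 14 at corner anchors and 146 at outside anchors. Pseudogene ends numbered 0.0381 per anchor at interior, 0.0557 at corner and 0.0923 at outside anchors.

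Interior loops often lay under a single long gene. In 210 of 1191 interior loops (17.6%) a protein-coding gene reached from the left anchor to the right one, against 54 of 770 corner loops (7.01%) and 45 of 574 outside loops (7.84%). In 76 interior loops (6.38%), 9 corner loops (1.17%) and 19 outside loops (3.31%) the gene covered the whole loop. This measure was chosen after its values had been seen. Per chromosome, the share with a gene reaching both anchors was 17.9 ± 8.92% for interior and 6.38 ± 5.03% for corner loops (SD, n = 18). The difference of 11.5 points was positive on 17 of 18 chromosomes (exact permutation p = 1.526e-05, adjusted over 9 tests 6.866e-05). Among loops of 100 to 200 kb, with span not matched further, it was 9.67 points and positive on all 17 chromosomes compared. Against outside loops, with 9.48 ± 8.55%, the difference was 8.38 points, positive on 15 of 18 chromosomes, and missed the threshold after adjustment (exact permutation p = 0.0278, adjusted p = 0.0835). With 1 chromosome left out at a time, the exact permutation adjusted p ranged from 0.00874 to 0.116. The difference passed only without chromosome 10 (exact permutation adjusted p = 0.00874) and without chromosome 16 (0.0196). At 100 kb the shares were 22.1% of 453 interior, 10.3% of 29 corner and 14.4% of 195 outside loops.

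**Figure D4:**
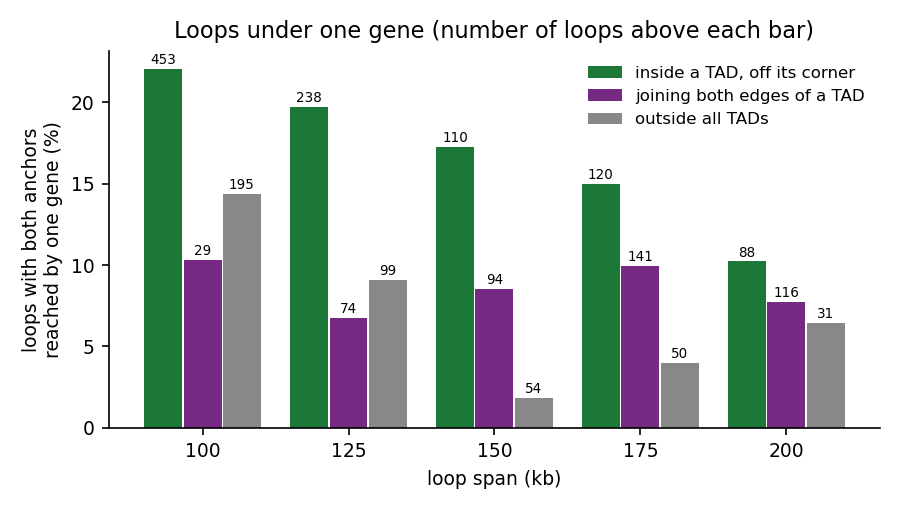
Percent of loops whose 2 anchors are reached by a single protein-coding gene, by loop span in kb, for interior, corner and outside loops, with the number of loops above each bar. The interior bars fall from 22.1% at 100 kb to 10.2% at 200 kb and stand above the other 2 at each span shown. Spans over 200 kb, with fewer interior loops, are not shown. There the interior share was again highest from 250 to 325 kb, but at 300 and 325 kb it was 1 of 19 loops and 1 of 13. It equalled the outside share at 225 kb (5.88%), and at 350 kb it was 0% of 14 loops against 9.52% of 21 corner loops.

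The genes over interior loops were long. There were 158 of them, with a median length of 194 kb, against 20.7 kb for all protein-coding genes, and a gene must be long to reach both anchors. Of these genes, 40 had 2 or more such loops. MAF had the most, the 4 loops described above. FNBP1, a membrane-bending protein of endocytosis with a gene of 138 kb, reached both anchors of 3 loops of 100 to 125 kb. They had 198 to 210 contacts and ratios of 1.36 to 1.66. SPATS2 had 3 with 159 to 205 contacts and ANKRD44 3 with 147 to 186. NEDD9, a scaffold protein of cell adhesion and lymphocyte migration, had 3 loops of 100 to 250 kb, and MBNL1, a splicing regulator, had 3 with 112 to 115 contacts. These genes were chosen by their number of loops after the values had been seen.

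In 28 interior loops (2.35%) the gene's 2 ends lay in the 2 anchors, against 13 corner loops (1.69%) and 10 outside loops (1.74%), with no test. The gene with the highest ratio among them was TNS1, a focal adhesion protein, with 115 contacts against 45 expected over 200 kb. ELOVL6, a fatty acid elongase, had 129 against 55.1. BCL2, which blocks apoptosis, had a loop on chromosome 1 from the anchor at 158325001 to 158350000 to an anchor 175 kb away, with 153 contacts against 65.5 expected. ZBTB16, a transcription factor of innate-like lymphocytes, had 117 contacts against 52.9 over 200 kb. IKZF1 (Ikaros), a lymphoid transcription factor, had 114 against 66.7 over 100 kb. FOXO3, a forkhead factor, had 136 against 74.9, and CREBBP, a histone acetyltransferase, had 130 against 81.2. SPEN, a regulator of Notch target genes, had 172 against 114. MERTK, the receptor by which macrophages take up dying cells, had 129 against 74.2 over 150 kb.

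Interior anchors held an end of 1356 genes, which is 7.24% of the 18722 protein-coding genes on the autosomes. Most, 1068, had 1 interior loop, 241 had 2 and 47 had 3 or more, and 202 also had an end at a corner-loop anchor. By rule the 20 named genes with the most interior loops are described, and all had 3 or 4. ARMC12 on chromosome 7 had 4 loops with 131 to 195 contacts, a fan of left anchors 100 to 175 kb away. An end of FKBP5, a co-chaperone of the glucocorticoid receptor, lay in one of them. QPRT, an enzyme of NAD synthesis, had 4 loops with 139 to 170 contacts on chromosome 3. They led to an anchor with ends of SEZ6L2, ASPHD1 and KCTD13 and to an anchor with FAM57B and ALDOA, a glycolytic aldolase. SLC16A6 had 4 loops of 100 to 175 kb with 143 to 156 contacts, and WIPI1, an autophagy protein, was among its partners. DESI1 on chromosome 5 had 4 loops with 97 to 194 contacts to anchors with TEF, PHF5A and RANGAP1. SLC8B1, a mitochondrial sodium/calcium exchanger, had 4 loops on chromosome 14 from a single right anchor. Their left anchors held ends of PLBD2, DTX1 (a regulator of Notch signalling), DDX54 and TPCN1, and their contacts numbered 95, 98, 163 and 194 in order of falling span.

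UNC50 on chromosome 3 had 4 loops in the TAD from 55330001 to 55870000, which with 6 interior loops held as many as any TAD. Its anchor, 55675001 to 55700000, was the right end of 3 loops and the left end of 1. To the left it met MGAT4A, a glycosyltransferase, over 125 kb with 156 contacts, and positions 225 and 250 kb away with 113 and 108 contacts. To the right it met an anchor with an end of CNGA3, a cyclic nucleotide-gated channel, over 175 kb with 167 contacts. The other 2 loops of the TAD, with 167 and 178 contacts, lay beside the last. The 6 pixels formed 3 groups of touching pixels. Of the UNC50 loops, the largest FDR of each was 0.0991 over 125 kb, 0.0198 over 225 kb and 0.0728 over 250 kb. For the UNC50 loop to CNGA3 it was 4.65e-07.

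**Figure D5:**
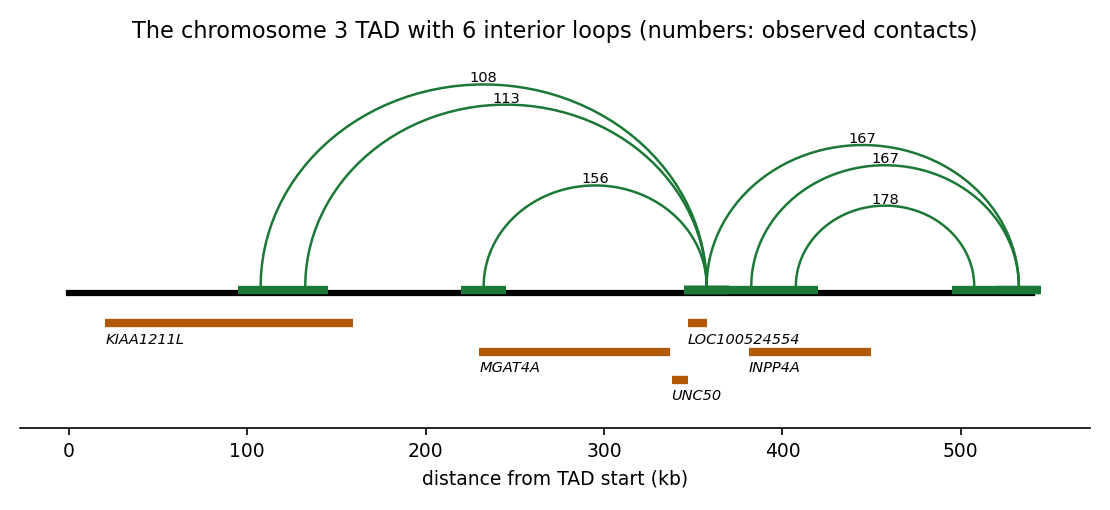
Map of the chromosome 3 TAD of 540 kb (black line; x axis, distance from the TAD start in kb) with its 6 interior loops as arcs labelled with observed contacts, anchors in green and protein-coding genes below in orange. The anchor at UNC50 takes part in 4 of the 6 loops, with 108 to 167 contacts.

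The other 14 genes had 3 loops each. HAUS8 and MYO9B, a myosin of immune cell migration, shared 3 loops with 196 to 215 contacts on chromosome 2. HMGA1, an architectural chromatin protein, was joined to RPS10, a ribosomal protein, by loops of 100 and 125 kb with 214 and 174 contacts. RIPOR1 and CARMIL2, which takes part in T cell co-stimulation, shared 3 loops with 161 to 174 contacts, and the gene of CTCF itself lies between them. VEZF1 and CUEDC1 shared 3 loops with 143 to 189 contacts. NXPH3 had 3 loops of 100, 125 and 225 kb with 210, 162 and 99 contacts, to anchors with SPOP, a ubiquitin ligase adaptor, and SLC35B1. VPS45, of vesicle traffic, had 3 with 166 to 189 contacts, and NPHS1, the kidney protein nephrin, had 3 with 136 to 194 whose partners included ZBTB32 and KMT2B. ARF6, FXYD6, PALM3 and FAM131C had 3 each, with 131 to 185 contacts. In several of these genes the loops were touching pixels, so they are not independent contacts.

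Of 2 further TADs with 6 interior loops, that on chromosome 14 from 31830001 to 32190000 had 118 to 195 contacts. A single anchor, 32150001 to 32175000, was the right end of 5 of its loops. Their left anchors included ends of VPS29 (a retromer subunit), HVCN1 (a proton channel of B cells and phagocytes) and PPP1CC. That on chromosome 6 from 82340001 to 82810000 held SRRM1, CLIC4 and RUNX3, a transcription factor of cytotoxic T cells. CLIC4 had ends in an anchor of 3 of its loops, and RUNX3 in none. On chromosome 13 the TAD from 115240001 to 116610000 had 5 interior loops with 79 to 156 contacts, and TBL1XR1, a corepressor subunit, was its single protein-coding gene. The TAD of SLC16A6 on chromosome 12 had 5, with 107 to 156 contacts.

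Genes of 17 lists were counted at interior anchors, beside the 7.24% of all protein-coding genes. The lists were written with earlier results of these data known, no list was tested, and neighbouring members can share a loop. Contacts alone do not show how well a loop stood out. The largest of its 4 FDR values was 4.62e-10 for a loop of RPS10 and 8.8e-07 for NFKBIA. It was 0.0678 for MAP3K14 and CBX3, 0.0728 for LYN, 0.0730 for GATA2 and 0.0830 for CTSS and a loop of TNFRSF13C. For MERTK it was 0.0903, for GP9 and TRAF6 0.0925 and for ID2 0.0977. Among the 20 genes with the most interior loops, it was over 0.05 for loops of UNC50, DESI1, QPRT, ARMC12, PALM3 and NPHS1. Of the lists of spleen cells, plasma cells had 3 of 13 members at interior anchors (23.1%), antigen presentation and dendritic cells 4 of 23 (17.4%), erythroid cells and megakaryocytes 4 of 26 (15.4%), and B cells 4 of 29 (13.8%). T and NK cells had 5 of 41 (12.2%), macrophages and monocytes 2 of 33 (6.06%), and stroma and vessels 1 of 29 (3.45%).

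A few loops had list members at both anchors. A loop of 100 kb on chromosome 13 joined IFNAR1, a chain of the type I interferon receptor, to IFNGR2, a chain of the interferon gamma receptor, with 149 contacts. Another on chromosome 3 joined IL21R to IL4R, both cytokine receptors of lymphocytes, with 137 contacts, and IL4R had a second with 165. The right anchor of a chromosome 6 loop of 150 kb held IRF3, a transcription factor of the antiviral response, and its left anchor RPL13A, with 178 contacts.

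Among B cell genes, TNFRSF13C, the BAFF receptor, had 2 loops with 181 and 157 contacts, and BCL2 had 2 with 149 and 153. BCL6, a germinal centre repressor, formed a loop of 250 kb with 114 contacts in a TAD of 1170 kb, and LYN, a Src-family kinase, had a loop of 150 kb with 108. Of plasma cell genes, HERPUD1 had a loop with 180 contacts, CREB3L2 with 134 and PRDM1, a repressor needed for plasma cells to form, with 92, all of 100 kb. The PRDM1 loop missed the nearest corner by 435 kb. Among T and NK cell genes, KLRB1 had 2 loops with 152 and 189 contacts and CD5 had 2 with 113 each. CD3E and CD3G, chains of the T cell receptor complex, had 1 loop each in different directions, with 178 and 160 contacts.

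Of antigen presentation genes, PSMB9, an immunoproteasome subunit, shared a loop with BRD2 and SLA-DOA with 194 contacts. NLRC5, the activator of MHC class I genes, had a loop with 144 contacts, and CTSS, a lysosomal protease of macrophages and B cells, one with 157. ID2, an inhibitor of DNA-binding factors, had a loop of 325 kb with 75 contacts. Of the erythroid and megakaryocyte list, SELP (P-selectin of platelets and endothelium), ITGB3, GP9 and GATA2 had 1 loop each with 141, 140, 107 and 76 contacts. Macrophage genes were CTSS and MERTK, and ENG, an endothelial receptor, was the stromal gene, with 133 contacts.

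Interferon response genes were at interior anchors in 6 of 40 (15%). Besides the 3 above, IRF1, a transcription factor, had a loop with 177 contacts. Cytokines and receptors were there in 5 of 48 (10.4%), and CXCL16 had 2 loops with 163 and 142 contacts and CXCL9 1 with 168. NF-kB genes were there in 3 of 28 (10.7%). NFKBIA, the inhibitor of NF-kB, had a loop with 197 contacts to PSMA6, and MAP3K14 and TRAF6 had 158 and 107.

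Of chromatin architecture genes, 3 of 25 (12%) were at interior anchors. CTCF had an end in 2 of the loops between RIPOR1 and CARMIL2, with 174 and 161 contacts, LMNB1, a lamin, had 1 with 115 and ESCO1, a cohesin acetyltransferase, 1 with 99. Genes that silence transposable elements were there in 3 of 25 (12%), CBX3 and CBX5, which bind methylated histone H3, with 158 and 134 contacts, and DNMT3A, a DNA methyltransferase, with 110. Housekeeping genes were there in 5 of 33 (15.2%), with 2 loops each for VPS29 and ALDOA, and ribosomal proteins in 6 of 72 (8.33%), led by RPS10 and RPL31 with 2 loops each. MEIS1 was the single one of 65 developmental transcription factors (1.54%), with 85 contacts in a TAD of 2160 kb. No member was found at an interior anchor among 28 neuronal genes (up to 10.7% for a count of 0) or 31 liver genes (up to 9.68%).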

How the data were processed

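Hi-C chromatin of 2 spleen samples was digested with DpnII, per the labels' protocols. The submitters' processing notes list HiC-Pro 3.1.0. Per the file headers, juicer_tools 1.9.9 made the deposited loop list. It gives observed contacts as raw counts, and the expected signal in the same unit, per the file headers. Its 4 FDR columns are q-values, per the file headers. What called the TADs, the genome build and any pooling of replicates: not given in the sources used here. Genes came from a RefSeq table of Sscrofa11.1, which has no strand, and were matched to the files' coordinates on that assumption. The 17 lists had 637 entries, 589 of them found among the protein-coding genes. Loops were classed and gene ends counted with Python 3.11.15, NumPy 2.4.6 and pandas 2.3.3. Differences per chromosome, over chromosomes with 5 or more loops of each class, were tested by an exact two-sided sign-flip permutation test and adjusted by Benjamini-Hochberg over 7 tests. Intervals for a difference are 95% t intervals over chromosomes. The test was tested on simulated data. Members, lists and tests were chosen with earlier results of these data known. The rule for named genes took the 20 genes with the most interior loops, ties by summed contacts, up to 4 members of each list, the 10 loops with the most contacts, the 10 with the highest ratio and the 5 TADs with the most interior loops. IL21R, beyond the 4, is named because it shares a loop with a named gene. Some genes that the rule takes are not reported here.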

Additional observations from a re-analysis of the deposited data

How the results depend on the processing

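The excess of gene ends at interior anchors over the rest of their TADs kept its direction and its call under every alternative tried, with differences of 0.279 to 0.377 per 25 kb (0.301 to 0.333 without a chromosome each, and 0.378 pooled, with no test). The number of interior loops was 595 among the 1631 autosomal loops with the lowest FDR and 745 with corners widened by 40 kb, against 1191. The difference in gene ends per anchor between interior and corner loops stayed positive and not called, from 0.0145 with corners of 10 kb to 0.125 with 1 pixel per group of touching pixels. To outside loops it stayed negative and not called, from -0.131 with the lowest FDR to -0.353 with all annotated genes, and from -0.218 to -0.125 without a chromosome. The difference in loops with gene ends at both anchors, interior minus corner, was called under no alternative. It was larger with 1 pixel per group (2.91 points), the lowest FDR (3.28) and corners of 40 kb (3.82), and turned to -0.384 points with anchors widened by 10 kb, -0.833 with corners of 10 kb and -0.576 for spans of 100 to 200 kb. Leaving out a chromosome gave -1.20 to 1.32. To outside loops this difference was -3.50 to -9.61, the last for spans of 100 to 200 kb. With gene ends at neither anchor, interior minus corner, it was -5.35 with 1 pixel per group, -6.33 with the lowest FDR and -3.98 with corners of 10 kb, none of them called, and turned to 0.571 with widened anchors, 1.25 with all annotated genes and 0.510 with corners of 40 kb, and ranged from -3.52 to 0.388 without a chromosome. The difference between edge and inner anchors passed with corners of 10 kb (0.137, exact permutation adjusted p = 0.0273; range of adjusted p over the other alternatives with a test 0.0531 to 0.491). The difference to outside loops in loops under a single gene ranged from 7.39 to 10.5 points without a chromosome, and that to corner loops was 9.66 with 1 pixel per group of touching pixels. The causes were not tested. Transcription start sites could not be used without strand, and no replicate could be left out, since the lists hold no value per replicate.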
